A study of Mus musculus with 24 samples.

Results

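The Cu response of *Baf180* knockdown (KD) myoblasts was set against that of *Baf250a* KD myoblasts, gene by gene, as a difference of 2 log2 fold changes (Cu over untreated in *Baf180* KD cells, minus Cu over untreated in *Baf250a* KD cells). The scrambled shRNA (scr) control cells took no part in this difference, so it asks which Cu responses differed between the 2 lines. The libraries were those titled for untreated and Cu-treated cells of both lines, 8 of the 24 RNA-seq libraries in the series, with 2 biological replicates in each of 4 groups. *Baf180* KD and *Baf250a* KD cells were mouse myoblasts stably transduced with lentiviral shRNA and selected with puromycin, and all 4 groups carried such a vector. Cu-treated groups received 100 µM CuSO4 for 48 h while proliferating, and untreated groups received no metal. The labels call the cells primary mouse myoblasts, whereas the culture methods describe the C2C12 myoblast line. A separate treatment label contradicted the library titles, and groups were taken from the titles. Each line was a selected population with 1 depleted subunit, so effects of the subunit, of the hairpin and of the selected population cannot be told apart.

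SWI/SNF complexes are ATP-driven motors that open or close stretches of chromatin, and cells assemble several versions of them. BAF180, encoded by *Pbrm1*, is a bromodomain protein of the version called PBAF, whereas BAF250a, encoded by *Arid1a*, is a DNA-binding subunit of canonical BAF. Cu is an enzyme cofactor that generates oxidants in excess: it is buffered by metallothioneins, exported by ATP7A, and can activate NRF2, the transcription factor for antioxidant enzymes, and ATF4, the transcription factor of the integrated stress response.

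The shRNA target sites define the knockdowns and are shown first, as the sense arm of each hairpin, 5′ to 3′. The hairpin that was in the sequenced cells was not given in the sources used here, so both listed for each gene are printed. Each matched transcripts of its own gene only in the GENCODE M21 transcripts, and coordinates are those of GRCm38 (mm10).
*Baf180* shRNA 1: tgtgaagttggtcctagttta
*Baf180* shRNA 2: gtgcaatatccagactattat
*Baf250a* shRNA 1: ctttatagtatggcgagttaa
*Baf250a* shRNA 2: cctaggcagcctaactataat
The first *Baf180* site lies in exon 31, in the 3′ UTR of *Pbrm1* (chr14:31119323-31119343, plus strand), and is present in 4 of 13 protein-coding transcripts. The second spans the junction of exons 7 and 8 in the coding sequence (chr14:31036057-31038950, plus strand) and is present in 11 of the 13. The first *Baf250a* site lies in exon 20, in the 3′ UTR of *Arid1a* (chr4:133679414-133679434, minus strand), in 2 of 4 protein-coding transcripts. The second lies in exon 8, in the coding sequence (chr4:133694042-133694062, minus strand), in 3 of the 4.

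Library totals of the 8 ranged from 16799494 to 33297041 counts, and 15579 of 55291 genes had enough counts to be tested. Levels are given below as CPM, counts divided by the library total and set to a common scale with edgeR's normalization factors, which compare libraries but not genes of different length. Myoblast markers were present in all 8 libraries: *Myod1* lay between 103 and 153 CPM and *Des* between 777 and 1138 CPM, and the 7 markers summed to 1781 to 1974 CPM in *Baf180* KD and 1360 to 1481 CPM in *Baf250a* KD cells. Of the markers of other cell types, *Thy1* was at 0 in all 8 libraries and *Adipoq*, *Plin1*, *Cdh5*, *Ptprc*, *Adgre1*, *Sp7*, *Ibsp* and *Acan* stayed under 1 CPM. Others were detected: the cartilage marker *Sox9* lay between 126 and 149 CPM, the adipocyte marker *Pparg* between 17.3 and 24.6 CPM, the immune marker *Cd68* between 3.02 and 5.38 CPM, and *Kdr* of endothelial cells reached 1.03 CPM. The satellite cell marker *Pax7* was low, at 0.376 to 3.53 CPM. The 4 fibroblast markers summed to 33.2 and 37.1 CPM in untreated and 23.5 and 25.1 CPM in Cu-treated *Baf180* KD libraries, against 83.7 and 91.1 CPM and 65.9 and 76.4 CPM in *Baf250a* KD libraries.

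The targeted genes followed the library names. *Pbrm1* was at 65.8 and 75.8 CPM in untreated and 42.1 and 56.0 CPM in Cu-treated *Baf180* KD libraries, and at 204 and 223 CPM in untreated and 204 and 193 CPM in Cu-treated *Baf250a* KD libraries. All 4 *Baf180* KD libraries lay below all 4 *Baf250a* KD libraries. *Pbrm1* fell with Cu in *Baf180* KD cells (log2 fold change −0.53, adjusted p = 0.0045, and −0.13 and 0.310 once each library's GC and length trend was removed, as described below), and its response did not differ between lines by the test (difference −0.42, adjusted p = 0.159). *Arid1a* was at 99.9 and 98.7 CPM in untreated and 116 and 113 CPM in Cu-treated *Baf250a* KD libraries, against 253 and 233 CPM and 206 and 242 CPM in the *Baf180* KD libraries. The difference of its responses was −0.32 (adjusted p = 0.170).

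Cu changed many more genes past the threshold in *Baf180* KD than in *Baf250a* KD cells, and 181 genes had a response that differed between the lines. At an adjusted p under 0.05 in one fit of the 8 libraries, 3517 genes (22.6% of those tested) responded to Cu in *Baf180* KD cells, 1738 up (11.2%) and 1779 down (11.4%). In *Baf250a* KD cells 125 genes (0.802%) responded, 64 up (0.411%) and 61 down (0.392%). These counts do not by themselves show a difference, which was tested as the interaction: 181 genes (1.16%) were called, 53 (0.34%) with a higher and 128 (0.822%) with a lower response in *Baf180* KD cells, and 3020 genes had an unadjusted p under 0.05. The median difference over all tested genes was 0.02.

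Most called differences came from a response in *Baf180* KD cells that was absent from the calls in *Baf250a* KD cells. Of the 53 genes with a higher response, 49 rose in *Baf180* KD cells by the test, 3 fell in *Baf250a* KD cells, and none passed in both. Their median log2 responses were 0.67 in *Baf180* KD and −0.14 in *Baf250a* KD cells, with opposite signs for 41 of the 53. Of the 128 genes with a lower response, 124 fell in *Baf180* KD cells, and 4 passed in *Baf250a* KD cells. Median responses of these 128 were −0.65 and 0.06, with opposite signs for 91. Since the same libraries called the difference, these counts describe its form and are not separate evidence for it. Without Cu, 29 of the 53 and 67 of the 128 genes already differed between the lines, against 33.2% of all genes. With Cu 47 and 110 did, against 43.9% of all genes. Of the genes with a higher response, 44 were called higher in *Baf180* KD than in *Baf250a* KD cells under Cu, against 14 without it. Over all genes these shares were 22.6% under Cu and 17% without it. Of those with a lower response, 107 were called lower in *Baf180* KD cells under Cu, against 22 without it. Over all genes, 21.4% were called lower under Cu and 16.2% without it.

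**Figure D1:**
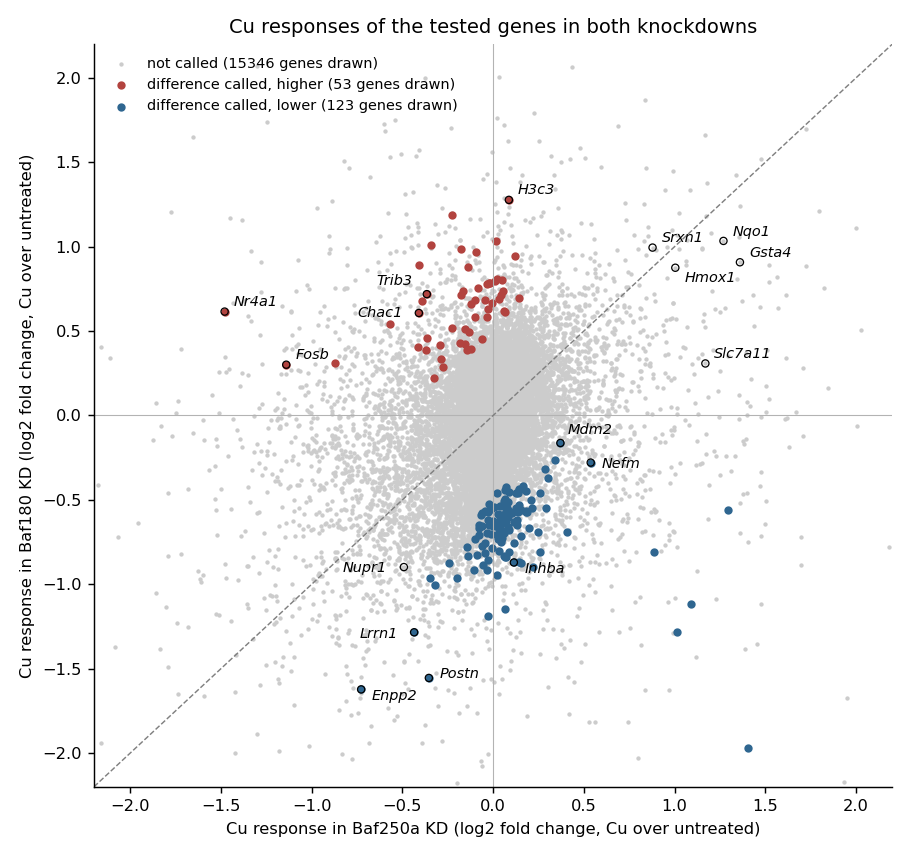
Log2 fold change with Cu in *Baf180* KD (vertical) against *Baf250a* KD cells (horizontal) for each tested gene. Red points mark genes with a called higher and blue points with a called lower response in *Baf180* KD cells, open circles mark labelled genes, and the dashed line marks equal responses. The called genes spread along the vertical axis near 0 on the horizontal axis. Of the labelled NRF2 targets, *Nqo1*, *Hmox1* and *Srxn1* lie near the dashed line, while *Gsta4* (difference −0.45) and *Slc7a11* (−0.86) lie below it. Outside the axes lie 57 genes, 5 of them called.

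The count of 181 moved with single libraries. It was 59 without *Baf180* Cu replicate 1, 1693 without *Baf180* Cu replicate 2, 285 without *Baf180* untreated replicate 1 and 14 without *Baf180* untreated replicate 2. Without *Baf250a* Cu replicates 1 and 2 it was 7 and 114, and without *Baf250a* untreated replicates 1 and 2 it was 23 and 18. Only *Chac1* and *Gm23935* were called in all 8 of these fits. The count of Cu-responsive genes in *Baf180* KD cells fell from 3517 to 1582 without *Baf180* Cu replicate 1 and to 969 without *Baf180* untreated replicate 2. The count of 125 in *Baf250a* KD cells was 57 and 34 without *Baf250a* Cu replicates 1 and 2, 42 and 33 without the untreated replicates, and 209 without either *Baf180* Cu library.

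The difference also moved with the base composition of the genes. Across genes, Spearman's rho between the difference and GC content was 0.40, and with transcript length it was −0.16. For the response itself, rho with GC content was 0.49 in *Baf180* KD, 0.13 in *Baf250a* KD, 0.39 in *Brd9* KD and −0.45 in scr cells. Genes are not independent replicates, and no p is attached to these values. When tested genes were split into 5 equal groups by GC content, the group with the lowest (27.5% to 43.3%) had a median difference of −0.31, with 82 genes called lower and 2 higher. The group with the highest GC content (from 55.2%) had a median of 0.17, with 29 called higher and 5 lower. Genes called higher had a median GC content of 55.7%, genes called lower 42.3%, and all tested genes 49.2%, and median transcript lengths were 1882, 4842 and 3075 bases. Between libraries, log2 level changed by 0.305 and 0.131 per 10 points of GC content in the *Baf180* Cu libraries, against 0.0246 and −0.124 in untreated *Baf180* KD libraries. In *Baf250a* KD libraries the slopes ran from −0.178 to −0.0142.

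Removing each library's trend in GC content and length left 26 genes (0.167%) called, 11 higher and 15 lower, of which 24 were among the 181. The 11 higher genes were *Nr4a1*, *Gm3375*, *H3c3*, *H2ac4*, *Tm4sf1*, *Trib3*, *Chac1*, *Hist1h2al*, *Pck2*, *Pgk1* and *Tspo*. The 15 lower genes were *Mdm2*, *Dnttip2*, *Pappa*, *Inhba*, *Anp32a*, *Car3*, *H19*, *Cfdp1*, *Postn*, *Lrrn1*, *Mustn1*, *Nefm*, *Gm23935*, *Gm15564* and *Mir6236*. *H3c3* had no GC value and was left uncorrected. With the correction, 1735 genes responded in *Baf180* KD and 157 in *Baf250a* KD cells. Whether the GC trend arose in the cells or in library preparation was not tested. Each of the 181 genes that is not among these 26 lost its call with the correction, also where a result below is given without the corrected value. Counts of genes that rose or fell in 1 line are those without the correction.

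**Figure D2:**
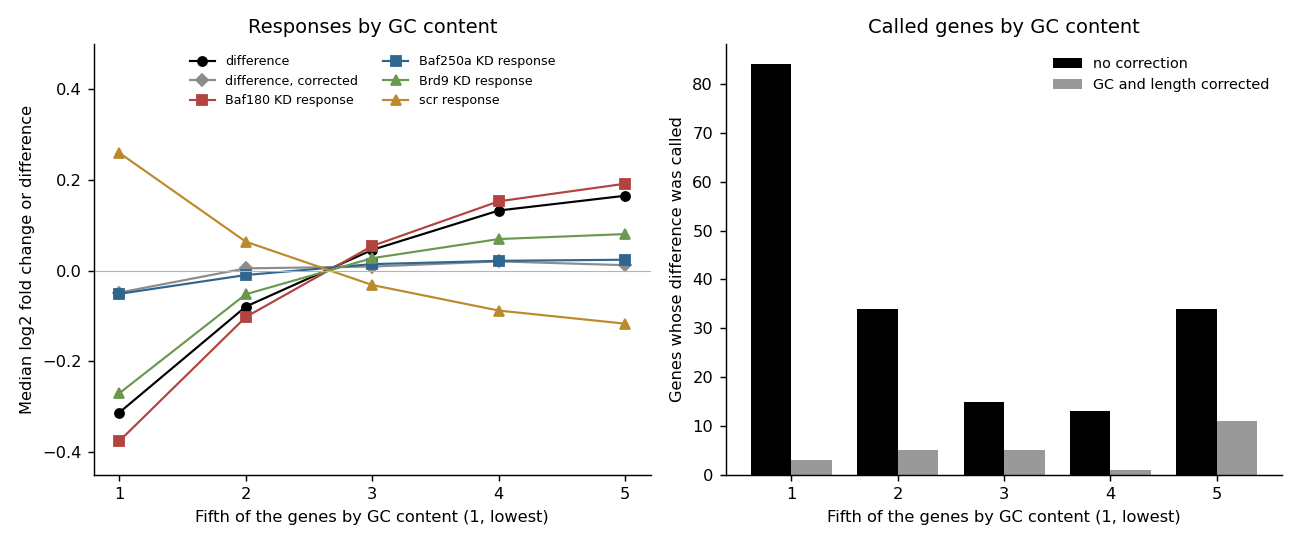
Left, median log2 Cu response in each cell line and median difference (*Baf180* KD minus *Baf250a* KD) in 5 equal groups of the tested genes by GC content. Right, number of genes with a called difference in each group, before and after correction for GC content and length. The difference climbs from −0.31 in the lowest to 0.17 in the highest group, and its 82 lower and 2 higher calls in the lowest group became 2 lower and 1 higher after correction.

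Genes of the ATF4 stress response supply amino acids, charge tRNAs and tune the integrated stress response, and most of them had a positive difference. Of 40 listed members tested, 4 were called higher and none lower (against 0.34% of all genes called higher), and 35 of the 40 differences were positive. The median difference was 0.32 against 0.02 over all genes, and 0.24 after correction, when 3 of the 4 calls held. In *Baf180* KD cells 23 of the 40 rose and 1 fell (against 11.2% and 11.4% of all genes), and in *Baf250a* KD cells 1 rose and 1 fell (0.411% and 0.392%). The summed level of the list was 7333 and 6648 CPM without and 8691 and 8172 CPM with Cu in *Baf180* KD cells, and 5348 and 5306 CPM without and 5309 and 5317 CPM with Cu in *Baf250a* KD cells.

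*Chac1* (chr2:119351229-119354381, plus strand) encodes a glutathione-degrading enzyme induced by ATF4. It was at 53.1 and 42.8 CPM in untreated and 75.8 and 70.2 CPM in Cu-treated *Baf180* KD libraries, and at 48.2 and 48.5 CPM in untreated and 36.4 and 36.4 CPM in Cu-treated *Baf250a* KD libraries. The untreated levels overlapped between lines, and the Cu-treated levels moved apart in opposite directions. *Chac1* rose in *Baf180* KD cells (log2 fold change 0.61 ± 0.10 SE, adjusted p = 0.000919) and had −0.41 ± 0.11 in *Baf250a* KD cells (adjusted p = 0.106). The difference was 1.02 ± 0.15 (adjusted p = 0.00833), and 0.82 after correction (adjusted p = 0.0285).

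*Trib3* (chr2:152337422-152344032, minus strand) encodes a pseudokinase that restrains ATF4 signalling. It was at 29.3 and 27.6 CPM in untreated and 52.6 and 41.2 CPM in Cu-treated *Baf180* KD libraries, against 16.6 and 16.7 CPM and then 12.4 and 13.5 CPM in *Baf250a* KD libraries. Neither line's Cu-treated libraries overlapped its untreated ones. The difference was 1.08 ± 0.18 (adjusted p = 0.0132), and the call was lost without *Baf180* untreated replicate 2 (1.02, adjusted p = 0.0996) or *Baf250a* Cu replicate 1 (1.03, adjusted p = 0.0906).

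*Pck2*, the mitochondrial form of phosphoenolpyruvate carboxykinase, was at 110 and 105 CPM in untreated and 166 and 130 CPM in Cu-treated *Baf180* KD libraries. In *Baf250a* KD libraries it was at 69.8 and 74.4 CPM without and 53.4 and 58.8 CPM with Cu, so that the 2 lines separated further under Cu. Its difference was 0.82 (adjusted p = 0.0214). *Cars*, the cytosolic cysteinyl-tRNA synthetase, was the remaining called member, with 102 and 95.1 CPM before and 135 and 135 CPM with Cu in *Baf180* KD cells and a difference of 0.52 (adjusted p = 0.0442), which was 0.36 after correction (adjusted p = 0.165). Members that missed the threshold had differences of up to 0.85: *Atf3*, a stress-induced transcription factor, had 0.85 (adjusted p = 0.0536) and *Psph*, the last enzyme of serine synthesis, had 0.62 (adjusted p = 0.0540). *Atf4* itself had 0.06, with a 95% interval of −0.20 to 0.33.

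The 5 members with a negative difference were *Slc7a11*, *Nupr1* and, within 0.06 of 0, *Cebpb*, *Cebpg* and *Eprs*. *Slc7a11*, the cystine importer controlled by both ATF4 and NRF2, was at 16.4 and 20.1 CPM in untreated and 19.5 and 25.6 CPM in Cu-treated *Baf180* KD libraries, where the groups overlapped. It was at 5.49 and 7.48 CPM without and 13.7 and 15.4 CPM with Cu in *Baf250a* KD libraries, where it rose (log2 fold change 1.17, adjusted p = 0.0025). The difference of −0.86 missed the threshold (adjusted p = 0.0663). After correction the response in *Baf180* KD cells was 0.76 (adjusted p = 0.00191) and the difference −0.49 (adjusted p = 0.265). *Nupr1*, a small stress-induced chromatin protein, fell in both lines, with responses of −0.90 and −0.49 and a difference of −0.41 (adjusted p = 0.147).

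**Figure D3:**
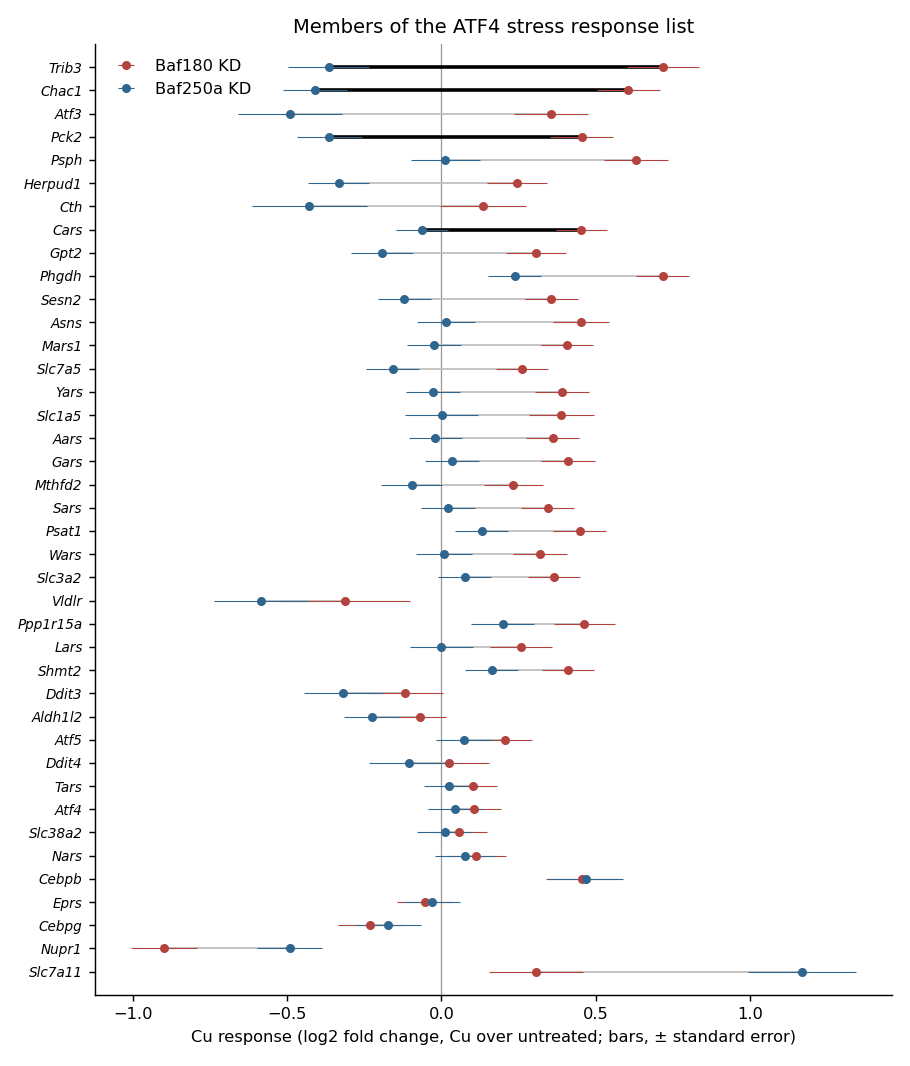
Log2 fold change with Cu in *Baf180* KD (red) and *Baf250a* KD cells (blue) for the 40 tested members of the ATF4 list, ordered by the difference, with bars of 1 standard error. Black connecting lines mark the 4 members whose difference was called. In 35 members the red point lies to the right of the blue point, and *Slc7a11* at the bottom has the reverse order.

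The upstream promoter stretches below show the ATF4 element in members of this list and what it did not separate. The C/EBP-ATF response element was searched as TGATGNAA on both strands in the 250 bases before each RefSeq gene start (GRCm38.p6, 1 chromosome left out). It was present in 11 of the 32 tested members with a promoter sequence (34.4%) and in 2.36% of the 10418 tested genes with one, in a list that was assembled from known ATF4 targets. The motif is in capitals, in either orientation, with its neighbouring bases in lower case.
*Chac1*: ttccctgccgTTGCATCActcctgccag
*Pck2*: gccttcaaagTTACATCAgtatcttaca
*Asns*: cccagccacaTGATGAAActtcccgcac
*Nupr1*: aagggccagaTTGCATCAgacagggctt
*Slc7a11*: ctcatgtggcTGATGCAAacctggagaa
The windows lie at chr2:119351039-119351066 (plus strand) for *Chac1*, chr14:55540153-55540180 (plus) for *Pck2*, chr6:7693215-7693242 (minus) for *Asns*, chr7:126625563-126625590 (minus) for *Nupr1* and chr3:50443662-50443689 (minus) for *Slc7a11*. *Chac1* and *Pck2* were called higher, *Asns*, the asparagine synthetase gene, had a difference of 0.44 (adjusted p = 0.0834), and *Nupr1* and *Slc7a11* had negative values, so that the letters were present in members on both sides of 0. No match was present in this window of the called genes *Trib3* and *Cars*.

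Immediate early genes, which growth factors and stress switch on within minutes, included the gene with the largest positive difference among those the naming rule admitted. Of 42 tested, 4 were called higher and 1 lower (against 0.34% and 0.822% of all genes), 35 differences were positive, and the median was 0.30 (0.17 after correction, with 1 call). *Nr4a1* (chr15:101254269-101274795, plus strand), an orphan nuclear receptor, was at 16 and 15.5 CPM in untreated and 27.4 and 21 CPM in Cu-treated *Baf180* KD libraries. In *Baf250a* KD libraries it was at 28.4 and 56.5 CPM without and 16.1 and 14.1 CPM with Cu. The groups did not overlap in either line, but the untreated *Baf250a* libraries were far apart. *Nr4a1* fell in *Baf250a* KD cells (log2 fold change −1.48, adjusted p = 0.0025), had 0.61 in *Baf180* KD cells (adjusted p = 0.0554), and differed by 2.09 ± 0.32 (adjusted p = 0.00833). Without *Baf180* untreated replicate 2 the difference was 2.04 (adjusted p = 0.0889).

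*Fosb*, a subunit of the AP-1 transcription factor, followed *Nr4a1*, with 4.70 and 4.95 CPM before and 6.06 and 5.85 CPM with Cu in *Baf180* KD cells, 5.91 and 6.07 CPM before and 3.07 and 2.30 CPM with Cu in *Baf250a* KD cells, and a difference of 1.44 (adjusted p = 0.0239). *Id1*, an inhibitor of differentiation factors, had 0.71 and *Ier2*, a nuclear growth response protein, had 0.68 (adjusted p = 0.0453 for both). None of these 3 kept its call after correction, where *Fosb* had 1.26 (adjusted p = 0.0743). *Zfp36l1*, which destabilizes mRNAs, was the lower one (−0.57, adjusted p = 0.0476). *Jun*, another AP-1 subunit, had 0.31 (adjusted p = 0.164).

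Replication-dependent histone genes, whose mRNAs end in a stem-loop and not a poly(A) tail, had positive differences for nearly the whole list. Of 50 tested, 7 were called higher and none lower (against 0.34% and 0.822% of all genes), 49 differences were positive, and the median was 0.57 (0.56 after correction, with 2 calls). Those 2 were *H2ac4* and *H3c3*, and *H3c3* had no GC value and was left uncorrected. In *Baf180* KD cells 46 of the 50 rose, against 11.2% of all genes. In *Baf250a* KD cells none passed in either direction, where 0.802% of all genes did, so that no call would be usual for a list of this size. Summed over the list, the level was 3684 and 3629 CPM without and 5971 and 5249 CPM with Cu in *Baf180* KD cells, and 2252 and 2359 CPM without and 2199 and 2789 CPM with Cu in *Baf250a* KD cells. *H3c3*, a core histone H3 gene, was at 34.0 and 27.4 CPM before and 77.5 and 71.0 CPM with Cu in *Baf180* KD cells, against 24.3 and 30.9 CPM and then 26.6 and 32.1 CPM in *Baf250a* KD cells. Its difference was 1.19 (adjusted p = 0.00903). *H1f2*, a linker histone gene, had 197 and 201 CPM before and 484 and 332 CPM with Cu in *Baf180* KD cells, 206 and 213 CPM and then 188 and 235 CPM in *Baf250a* KD cells, and a difference of 1.02 (adjusted p = 0.0239; 0.84 and 0.0743 after correction).

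*H2ac4*, a core histone H2A gene, had 1.06 (adjusted p = 0.0239), and *H2bc12*, *H2bc9* and *H2bc14* of the H2B genes and *H1f5* of the linker genes had 0.55 to 1.02. Histone genes are near-identical copies counted by uniquely mapped reads, so the share of each single gene is uncertain. *Hist1h4n*, an H4 gene outside the list, had 1.35 (adjusted p = 0.0250; 1.21 and 0.0766 after correction), and the processed pseudogene *Gm3375* had 1.42 (adjusted p = 0.0159), both with the same uncertainty. Of 51 other S phase genes none had a called difference, which is near the share of all genes, and 34 differences were positive, with a median of 0.13. In *Baf180* KD cells 22 of these 51 rose and 3 fell, against 11.2% and 11.4% of all genes. In *Baf250a* KD cells none passed, which is usual for this many genes when 0.802% of all genes do.

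Among metabolic genes, glycolysis and sterol synthesis each gave called members in 1 direction. Of 21 glycolysis genes 3 were called higher (against 0.34% of all genes) and none lower, with a median difference of 0.23 and 20 positive values. After correction the median was 0.175, with 1 call. *Pgk1* (chrX:106187100-106203699, plus strand), phosphoglycerate kinase, was at 143 and 137 CPM in untreated and 244 and 205 CPM in Cu-treated *Baf180* KD libraries, and at 184 and 173 CPM and then 169 and 178 CPM in *Baf250a* KD libraries, where the groups overlapped. The difference was 0.73 ± 0.13 (adjusted p = 0.0214) and 0.64 after correction (adjusted p = 0.0431). *Pfkl*, a phosphofructokinase gene, and *Slc16a3*, the lactate exporter, had 0.66 and 0.81 and lost their calls after correction. Of 25 sterol genes 2 were called higher, with a median of 0.39 (0.30 after correction, with no call).

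*Fdps*, farnesyl diphosphate synthase, had 0.75 (adjusted p = 0.0429). Outside the lists, *Tspo*, a cholesterol-binding protein of the outer mitochondrial membrane, was at 93.6 and 97.0 CPM before and 185 and 150 CPM with Cu in *Baf180* KD cells and between 79.1 and 88.1 CPM in all 4 *Baf250a* KD libraries, with a difference of 0.79 (adjusted p = 0.0214). *Tm4sf1*, a membrane protein of the tetraspanin-like family, had 0.84 (adjusted p = 0.00833). *Tspo* and *Tm4sf1* were chosen here after their values were seen, since both stayed called after correction.

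Among the protein-coding genes with lower Cu responses in *Baf180* KD cells were genes of secreted factors. *Postn* (chr3:54361109-54391037, plus strand), periostin, a matrix protein of growing muscle and connective tissue, was at 73.9 and 87.8 CPM in untreated and 23 and 31.8 CPM in Cu-treated *Baf180* KD libraries. The *Baf250a* KD libraries held 186 and 204 CPM without and 163 and 143 CPM with Cu. Each Cu group lay below its untreated group, and the response was the more negative in *Baf180* KD cells (log2 fold change −1.56, adjusted p = 5.54e-06, against −0.36, adjusted p = 0.281). The difference was −1.20 ± 0.18 (adjusted p = 0.00833; −0.86 and 0.0285 after correction), and −1.09 without *Baf180* untreated replicate 2 (adjusted p = 0.0605). *Postn* was the only called gene among 54 collagen and matrix genes tested, whose median difference was 0.04. A single lower call in a list of this size lies near the 0.822% of all genes called lower.

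*Inhba* (chr13:16011851-16031621, plus strand), which encodes the activin A subunit of the TGF-beta family, was at 133 and 169 CPM in untreated and 78.4 and 87.0 CPM in Cu-treated *Baf180* KD libraries. The *Baf250a* KD libraries held 260 and 268 CPM and then 304 and 267 CPM, where the groups overlapped. The difference was −0.98 ± 0.15 (adjusted p = 0.00833; −0.66 and 0.0285 after correction), with the call lost without *Baf250a* Cu replicate 1 (−0.88, adjusted p = 0.0725). *Pappa*, a protease that frees insulin-like growth factors from a binding protein, was at 94.0 and 105 CPM before and 50.8 and 56.7 CPM with Cu in *Baf180* KD cells and between 80.2 and 86.7 CPM in all *Baf250a* KD libraries, with a difference of −0.83 (adjusted p = 0.00833). *Pappa* was chosen after its values were seen.

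**Figure D4:**
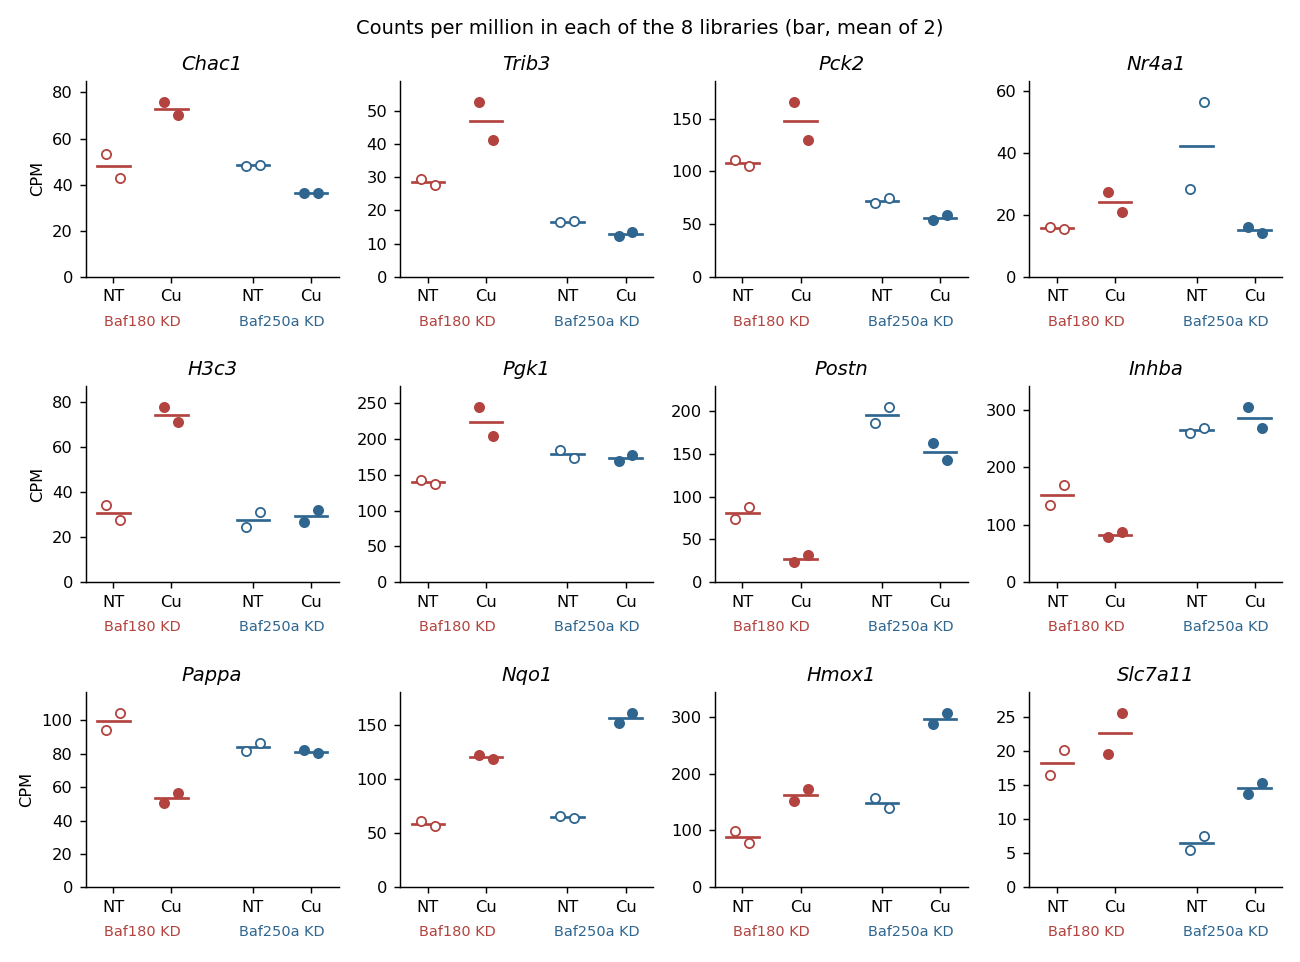
CPM of 12 genes in each of the 8 libraries, *Baf180* KD in red and *Baf250a* KD in blue, with open circles for untreated (NT), filled circles for Cu-treated libraries and bars for the mean of 2. For *Chac1*, *Trib3* and *Pck2* the filled points lie above the open ones in red and below them in blue, *Postn*, *Inhba* and *Pappa* fall in red, and *Nqo1* and *Hmox1* rise in both.

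Smaller groups of stress and repair genes held called lower members without a shift of the whole list. Of 31 p53 targets 4 were called lower (against 0.822% of all genes) and none higher, with a median near 0 and 16 positive values. *Ccng1*, cyclin G1, was at 293 and 257 CPM before and 172 and 203 CPM with Cu in *Baf180* KD cells, and at 389 and 428 CPM and then 475 and 471 CPM in *Baf250a* KD cells, with a difference of −0.76 (adjusted p = 0.0214; −0.55 and 0.115 after correction). *Trp53inp1* had −0.87, and *Polk*, a translesion polymerase, had −0.72, both without a call after correction (−0.54 and −0.49). *Mdm2*, the ubiquitin ligase for p53, had −0.53 (adjusted p = 0.0337), which was −0.53 after correction as well (adjusted p = 0.0443). *Mdm2* was at 134 and 131 CPM before and 117 and 119 CPM with Cu in *Baf180* KD cells, and at 115 and 111 CPM and then 146 and 146 CPM in *Baf250a* KD cells. *Cdkn1a*, the p53-induced cell cycle inhibitor, had −0.15, with a 95% interval that ran from −0.45 to 0.14.

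Of 24 heat shock chaperones 3 were called lower, namely *Chordc1*, *Dnaja1* and *Dnajb4*, with differences of −0.68, −0.55 and −0.59, and the median of the list was near 0. Of 60 DNA repair genes 3 were called lower: *Lig4*, the ligase of end joining (−0.89), *Nbn*, a double-strand break sensor (−0.67), and *Blm*, a helicase (−0.65). In the splicing list of 85 genes 2 were lower, *Hnrnph1* (−0.78) and *Pnn* (−0.90), and 1 was higher, *Snrpb* (0.68). In the list of 76 nuclear respiratory chain genes 2 were lower, *Uqcrb* of complex III (−1.01, adjusted p = 0.0214) and *Cox7b* of complex IV (−0.77), while the list's median was 0.15. Against 0.822% of all genes called lower, the counts of the splicing and respiratory chain lists lie near the share of all genes. None of these calls held after correction for GC content and length. The median GC content of the splicing list was 46.2% and of the DNA repair list 47.2%, below the 49.2% of all tested genes.

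The remaining lists held at most 3 calls each. Of 77 cytosolic ribosomal protein genes 2 were called higher, *Rpl24* (1.16, adjusted p = 0.0429) and *Rpsa* (0.55), and 1 lower, *Rpl21* (−0.60), all uncertain because processed copies of these genes share their reads, and none called after correction. *Bok*, a cell death regulator of the BCL2 family, was the 1 called of 35 apoptosis genes: it was at 36.6 and 38.2 CPM before and 74.9 and 53.9 CPM with Cu in *Baf180* KD cells, between 39.7 and 44.7 CPM in all *Baf250a* KD libraries, and its difference was 0.80 (adjusted p = 0.0429; 0.64 and 0.104 after correction). *Mef2a*, a muscle transcription factor, was the 1 called of 57 myogenic and sarcomere genes (−0.59, adjusted p = 0.0482), *Hmmr*, a spindle protein, of 64 mitotic genes (−0.70), and *Eif2ak2*, the double-stranded RNA sensor PKR, of 31 interferon genes (−0.69), and these 3 calls did not hold after correction. A single lower call in lists of these sizes lies near the 0.822% of all genes.

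Of 26 SWI/SNF subunit genes none was called, as is usual for lists of this size when 1.16% of all genes are, with a median of −0.09. None was called either among 15 genes of Cu enzymes, 16 zinc transporters, 15 genes of lipoylation and cuproptosis, 77 mitochondrial ribosomal proteins, 29 iron and heme genes, 31 glutathione and peroxidase genes or 36 cytoskeletal genes, whose medians ran from 0.00 to 0.12. Outside the lists, the largest negative differences at 10 CPM or more included *Mphosph10*, a ribosomal RNA processing factor (−1.03), *Hdac9*, a histone deacetylase (−0.96), and *Dnajc2*, a ribosome-bound chaperone (−0.94), each of which fell in *Baf180* KD cells and lost the call after correction. *Klf4*, a zinc finger transcription factor, had 0.17 and *Synpo2l*, an actin-binding protein of muscle, had −0.22, and neither was called.

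**Figure D5:**
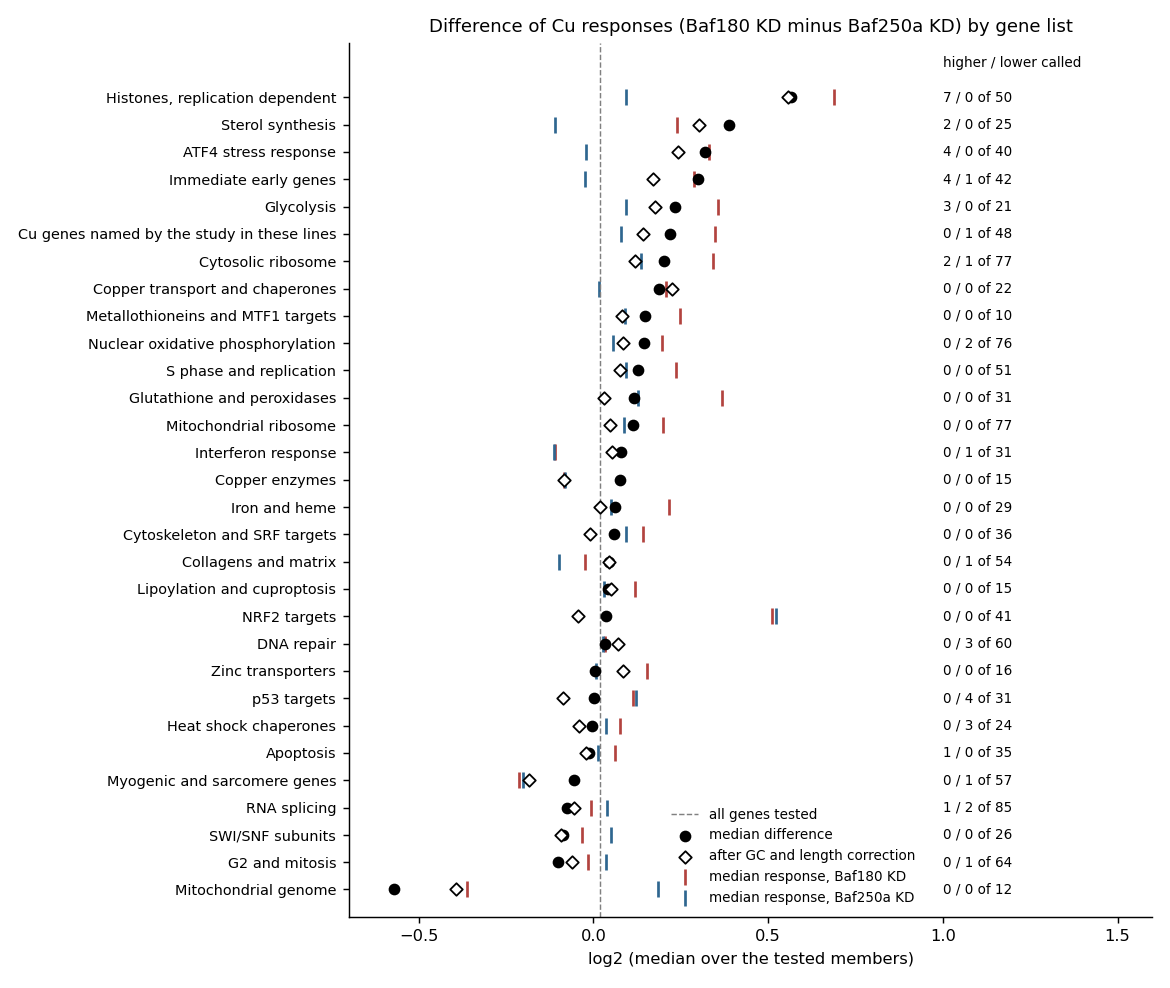
Median difference of Cu responses (*Baf180* KD minus *Baf250a* KD, log2) over the tested members of each gene list drawn, before (filled circles) and after correction for GC content and length (diamonds), with the median response in each line (ticks). The structural RNA list, with a median of −1.18, and the lists of cell type markers are not drawn. The numbers at the right are members called higher and lower, and the dashed line is the median of all tested genes. Histone, sterol, ATF4 and immediate early lists lie furthest to the right, and the NRF2 list has high responses in both lines and a difference near 0.

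The NRF2 targets held genes that rose in both lines. Of 41 tested, 31 rose in *Baf180* KD and 19 in *Baf250a* KD cells (against 11.2% and 0.411% of all genes), none fell in either, and 37 had positive responses in both. The median response was 0.51 in *Baf180* KD and 0.52 in *Baf250a* KD cells, and the median difference was 0.04. None of the 41 differences was called, which the 1.16% over all genes would also give. *Nqo1*, a quinone reductase, was at 61.1 and 56.6 CPM in untreated and 122 and 118 CPM in Cu-treated *Baf180* KD libraries, and at 65.9 and 64.2 CPM and then 152 and 161 CPM in *Baf250a* KD libraries. All Cu libraries lay above all untreated ones. It rose by 1.03 and 1.27 (adjusted p = 5.54e-06 and 3.23e-07), with a difference of −0.24 and a 95% interval of −0.48 to 0.01.

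*Hmox1*, heme oxygenase, rose from 99.5 and 78.2 CPM to 153 and 173 CPM in *Baf180* KD cells and from 157 and 139 CPM to 286 and 307 CPM in *Baf250a* KD cells, with a difference of −0.13 (95% interval −0.45 to 0.19). *Srxn1*, sulfiredoxin, rose in both lines with a difference of 0.12 (−0.15 to 0.38), and *Txnrd1*, thioredoxin reductase, rose in both with 0.03 (−0.25 to 0.31). *Gsta4*, a glutathione transferase, rose by 0.91 and 1.36, with a difference of −0.45 (−0.72 to −0.19, adjusted p = 0.0708). *Gclm*, the regulatory subunit of the enzyme that starts glutathione synthesis, rose in both lines and had −0.32 (−0.59 to −0.06, adjusted p = 0.170). *Slc7a11*, given above, also had an interval below 0. Intervals above 0 belonged to *Taldo1* (0.45, 0.11 to 0.79), *Tkt* (0.39, 0.12 to 0.66) and *Akr1b3* (0.33, 0.0016 to 0.67). The intervals are not adjusted for the number of genes, so an interval without 0 can belong to a gene that was not called.

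Genes that handle Cu and other metals are few, and with 1.16% of all genes called no call would be usual among them. Of 22 genes for Cu transport and chaperones none was called, with a median of 0.19, and of 10 metallothionein and MTF1 target genes none was called, with a median of 0.15. *Atp7a*, the Cu-exporting ATPase, was at 42.6 and 48.2 CPM in untreated and 30.5 and 33.5 CPM in Cu-treated *Baf180* KD libraries, and at 55.0 and 56.3 CPM and then 56.1 and 49.0 CPM in *Baf250a* KD libraries. It fell in *Baf180* KD cells (log2 fold change −0.50, adjusted p = 0.00275), and the difference was −0.42 (95% interval −0.73 to −0.12, adjusted p = 0.119). *Slc31a1*, the Cu importer CTR1, lay between 59.7 and 78.2 CPM in all 8 libraries, with a difference of −0.07 (−0.35 to 0.21).

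*Mt1*, a metallothionein gene, was at 282 and 218 CPM before and 259 and 326 CPM with Cu in *Baf180* KD cells, and at 272 and 261 CPM and then 328 and 324 CPM in *Baf250a* KD cells. Its groups overlapped in *Baf180* KD cells and did not in *Baf250a* KD cells, and the difference was −0.06 (−0.41 to 0.28). *Mt2* rose in *Baf180* KD cells (0.29, adjusted p = 0.0240; 0.13 and 0.328 after correction), with a difference of 0.07 (−0.19 to 0.33). *Mtf1*, the metal-responsive transcription factor, had −0.04 (−0.32 to 0.23), and *Slc30a1*, a zinc exporter, had 0.30 (−0.04 to 0.64). Of 48 genes picked on these same libraries as Cu genes, a choice that gives no independent evidence, 1 was called lower and none higher, and the median was 0.22.

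Transcripts of the mitochondrial genome had a low median without a call. All 12 listed members tested had negative differences, with a median of −0.57 (−0.39 after correction), and none of the 12 passed the test. Over all 15 listed members, tested or not, the summed level was 17400 and 13960 CPM in untreated *Baf180* KD libraries. With Cu it was 8741 and 15840 CPM, so that *Baf180* Cu replicate 1 lay below all other libraries and replicate 2 lay between the untreated ones. In *Baf250a* KD libraries it was 12700 and 14880 CPM without and 17420 and 15030 CPM with Cu.

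Structural RNAs held the differences of largest size. Of 18 listed members tested, 6 were called lower and none higher (against 0.822% and 0.34% of all genes). *Gm23935*, annotated as a miRNA gene, was at 140 and 22.6 CPM in untreated and 4.75 and 6.61 CPM in Cu-treated *Baf180* KD libraries, and at 6.64 and 3.20 CPM and then 57.7 and 18.2 CPM in *Baf250a* KD libraries, with a difference of −6.76 (adjusted p = 0.00833). Replicates of 1 group were far apart in this list: *Gm24187*, a called member, was at 16.9 and 0.604 CPM in Cu-treated *Baf250a* KD libraries, and *Mir6236*, another, at 12.4 and 1.40 CPM in untreated *Baf180* KD libraries. *Rny1*, a small cytoplasmic Y RNA, was at 59.8 and 61.7 CPM before and 30.9 and 19.2 CPM with Cu in *Baf180* KD cells, and at 16 and 32.5 CPM and then 23.4 and 74.7 CPM in *Baf250a* KD cells, with −2.29 (adjusted p = 0.0439; −2.08 and 0.0989 after correction). The list also holds a protein-coding gene, *Lars2* of a mitochondrial tRNA synthetase, which was among the 6 called. *Lars2* had −3.37 (adjusted p = 0.0306), and −3.45 and 0.0743 after correction. The libraries were depleted of ribosomal RNA by RNase H, and these RNAs took 1.26% to 1.82% of counts in *Baf180* KD and 0.931% to 1.15% in *Baf250a* KD libraries; the part of depletion in these differences was not tested.

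The Cu responses of *Brd9* KD and scr cells, from 8 libraries not used above, gave values for the same genes in other lines; BRD9 belongs to non-canonical BAF. Neither line called any of the 181 genes. Over all 15181 genes, Cu called 13 (0.0856%) in *Brd9* KD and 2 (0.0132%) in scr cells, so that no call would be usual. *Brd9* KD cells had the sign of the *Baf180* KD response in 50 of the 53 genes with a higher and 119 of the 128 with a lower response, and over all tested genes in 75.1%. The scr cells had that sign in 7 of the 53 and 15 of the 128, and over all genes in 35.2%. These shares ran with the GC trends given above, positive in *Baf180* KD and *Brd9* KD and negative in scr cells, whose untreated libraries also held the most structural RNA, 5.82% and 3.09% of counts. *Chac1* had a log2 response of 0.47 in *Brd9* KD and −0.05 in scr cells, *Trib3* 0.52 and −0.05, *H3c3* 0.64 and −0.45, *Postn* −1.15 and 0.21, and *Inhba* −0.70 and 0.28. The difference between the Cu responses of *Brd9* KD and scr cells, tested by edgeR on those 8 libraries, was called for 0 of 15181 genes, with 1718 at an unadjusted p under 0.05, and DESeq2 called 12.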

How the data were processed

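RNA was sequenced after ribosomal RNA removal by RNase H and a directional library kit. The authors aligned read pairs to mm10 with STAR, keeping uniquely mapped pairs, and counted them per gene by strand with featureCounts; versions are not given in the sources used here. The deposited table holds these raw counts for 24 libraries; 14 further tables hold the authors' own DESeq2 comparisons (fold changes and p-values) and were not used. Groups came from library titles.

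From the counts, genes with enough counts (filterByExpr) in the 8 libraries were fitted by group in edgeR 4.0.16 (R 4.3.3), with TMM scaling and quasi-likelihood tests. The difference was the contrast of both Cu responses, and calls used a Benjamini-Hochberg adjusted p under 0.05 over all tested genes. Fold changes are log2, and SE is the size of the fold change over the square root of its quasi-likelihood F statistic. Replicates of a group differed beyond sampling noise, and p-values measure the spread between 2 cultures per group, with dispersion shared across genes. GC content and length were taken from the longest GENCODE M21 transcript (53658 of 55291 symbols matched, 366 by older symbols), and a spline with 5 degrees of freedom in each was removed per library. Alternatives were DESeq2 1.42.0, other scalings, filters, libraries and replicate blocks.

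Named genes were both targets, 10 called genes in each direction by size (mean of at least 10 CPM, Cu libraries outside the untreated range in 1 line), the called list member with the smallest p in each direction, and a set list of metal, NRF2 and other genes; further names are said or can be seen to lie outside this rule where lists are described. Members and lists were chosen with earlier results of these data known. The tests were also run on simulated counts with the same dispersion for all genes and no GC or length trend. That run does not cover the GC trend or the outlying libraries seen here. 1 called gene is not reported here.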

Additional observations from a re-analysis of the deposited data

Results flagged for a closer look

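The interaction test called a different Cu response in *Baf180* KD and *Baf250a* KD cells for 181 genes, and named genes among them are given with the log2 difference of the responses that put them on the list. Differences past the threshold with a higher response in *Baf180* KD cells were 2.09 for *Nr4a1*, 1.42 for *Gm3375*, 1.35 for *Hist1h4n*, 1.19 for *H3c3*, 1.16 for *Rpl24* and 1.08 for *Trib3*. They were 1.06 for *H2ac4*, 1.02 for *H1f2*, 1.02 for *H2bc12*, 1.02 for *Chac1*, 0.80 for *Bok*, 0.73 for *Pgk1* and 0.68 for *Snrpb*.

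With a lower response, the differences of structural and related transcripts were −6.76 for *Gm23935*, −3.37 for *Lars2*, −2.29 for *Rny1* and −1.85 for *CT010467.2*, a pseudogene at 18 to 113 CPM. Those of protein-coding genes were −1.20 for *Postn*, −1.03 for *Mphosph10*, −1.01 for *Uqcrb*, −0.98 for *Inhba*, −0.96 for *Hdac9*, −0.94 for *Dnajc2* and −0.89 for *Lig4*. Smaller ones were −0.78 for *Hnrnph1*, −0.76 for *Ccng1*, −0.70 for *Hmmr*, −0.69 for *Eif2ak2*, −0.68 for *Chordc1*, −0.60 for *Rpl21*, −0.59 for *Mef2a* and −0.57 for *Zfp36l1*. Groups of 2 libraries were too small for a check of single outlying libraries.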

How the results depend on the processing

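The number of genes with a differing Cu response depended on most choices. Against 181, it was 707 by DESeq2, 840 with every gene of at least 1 count, 27 with a mean of at least 10 CPM, 333 after thinning to the smallest total, 7 with the 12 libraries of both lines including Zn, 1 with all 24 libraries, 26 with the GC and length correction and 4 against a minimum fold change of 1.5. It was within 1.5 times of 181 with RLE scaling and without structural RNA. Leaving out single libraries gave 7 to 1693. Of the 181 genes, 1 changed sign in any of the 21 alternatives, and none was called in all that tested it.

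The main fit did not pair libraries by replicate number. Deviations of same-numbered libraries correlated at 0.154 within *Baf180* KD and 0.00924 within *Baf250a* KD cells and at −0.103 to 0.204 between lines. Whether replicate numbers mark a shared batch was not tested. With the replicate block over the 8 libraries 368 genes were called, and with the replicate block within each cell line 961. That block together with the GC and length correction gave 166 genes, 80 of them among the 181. For the *Baf250a* KD response, against 125, the block within each line gave 210, and 203 with the correction.

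The *Baf180* KD response, 3517 genes, was 1735 with the GC and length correction, 2130 with that correction and the block within each line, 1959 with all 24 libraries, 15 against a minimum fold change of 1.5, and 969 to 3880 without single libraries. The *Baf250a* KD response was 258 with at least 1 count, 59 with all 24 libraries, 3 against the minimum fold change, and 33 to 209 without single libraries. The lines differed in 5173 genes untreated (3452 to 5601 without single libraries) and 6846 in Cu (4473 to 7012). For *Brd9* KD against scr, DESeq2 called 12 genes where edgeR called 0.

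Among named genes, signs of the difference turned only for these uncalled ones. With the GC and length correction, and with that correction and the replicate block within each line, *Slc31a1* had 0.0782 and 0.0859, *Mt2* −0.0768 and −0.0768, *Mtf1* 0.00727 and 0.00665, *Txnrd1* −0.0468 and −0.0518, *Srxn1* −0.0393 and −0.0396, and *Klf4* −0.00728 and −0.00944. Without single libraries, *Slc31a1* ran from −0.201 to 0.0434, *Mt1* from −0.258 to 0.138, *Mt2* from −0.0433 to 0.175, *Hmox1* from −0.316 to 0.0593, *Txnrd1* from −0.0925 to 0.162 and *Cdkn1a* from −0.312 to 0.00565. Genes under the count filter at these depths were not tested.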
